A study of Mus musculus with 12 samples.

Results

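The mRNAs of 9 genes of insulin and insulin-like growth factor (IGF) signalling were followed through the day in mouse liver. The members were taken by symbol, and all 9 were found among the 20069 genes of the series. They comprise the hormone Igf1, its plasma partner Igfals, the growth hormone receptor Ghr, the IGF binding proteins Igfbp1, Igfbp2 and Igfbp4, the insulin receptor Insr, and the docking proteins Irs1 and Irs2. Poly(A) RNA was sequenced from whole livers of wild-type C57BL/6 male mice, 3 to 6 months old. The mice were housed in 12 hr of light and 12 hr of darkness for some weeks and killed at Zeitgeber time (ZT, hours after lights on) 2, 6, 10, 14, 18 or 22. Each time has 2 samples, replicate 1 and replicate 2, from 2 independent runs of the 6 times, which gives 12 samples with no treatment. The samples are of different livers, but the labels do not name animals, and p-values measure the spread between these samples. Levels are given in reads per base pair (rpbp), the mean read coverage of a gene's exons per 40000000 uniquely mapped sequences, so that genes of different length can be compared.

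IGF1 is a growth factor that the liver makes and releases into the blood when pituitary growth hormone binds its receptor GHR and the kinase JAK2 activates the transcription factor STAT5B. In plasma most IGF1 travels in a complex with an IGF binding protein and the acid-labile subunit, the product of Igfals, while smaller binding proteins such as IGFBP1, IGFBP2 and IGFBP4 hold it outside that complex. Insulin acts on its receptor INSR, which phosphorylates IRS1 and IRS2, and these recruit the lipid kinase PI3K, which leads to AKT and to the exclusion of the transcription factor FOXO1 from the nucleus; Igfbp1 and Irs2 are classical genes that FOXO1 activates and insulin lowers.

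In 3 of the 12 livers, both of ZT2 and replicate 2 of ZT22, the acute phase genes Saa1, Saa2, Orm2 and Hp, which the liver induces in inflammation, were far higher than elsewhere. All 4 were above their highest value in the other 9 livers, with a summed level of 21316 to 42623 rpbp against 3678 to 5769 rpbp. Albumin mRNA was 50445 and 53126 rpbp at ZT2 and 93174 to 122523 rpbp in the other samples. The hepatocyte markers did not all fall at ZT2. Ttr was also lowest there (9533 and 9369 rpbp against 11885 to 14781 rpbp). Apoa1 was highest there (17423 and 17762 rpbp against 7866 to 15191 rpbp), and Cps1 and Serpina1c lay inside the range of the other samples. The summed markers of Kupffer cells, the liver's macrophages, were 259 to 330 rpbp in the 3 livers and 180 to 259 rpbp in the others, and those of bile duct cells were low, at 10.9 to 15.96 rpbp in the 3 livers and 4.80 to 12.6 rpbp in the others. The bile duct sum was mostly Sox9, at 7.40 to 11.32 rpbp in the 3 livers and 1.52 to 8.92 rpbp in the others. Krt19, Krt7 and Epcam (listed as Tacstd1) were at most 2.48 rpbp in any liver. None of the markers examined was at 0 throughout, and hepatocyte markers (83860 to 158410 rpbp) were by far the highest of the cell types. In whole tissue, fewer cells of a type and less mRNA per cell cannot be told apart. The clock output gene Dbp was at 193 and 241 rpbp at ZT6 and at most 3.80 rpbp at ZT2 and ZT22, which matches the time labels. The part of the acute phase state in the results below was not tested, and the members' calls are also given without these livers where they change. Leaving them out also leaves no sample at ZT2 and 1 at ZT22, so that 9 samples of 5 times remain, and the loss of the livers, of a time and of samples cannot be told apart.

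The mean levels of the members spanned from 2030 rpbp for Igfbp4 to 4.67 rpbp for Irs2, against a median of 22.9 rpbp over the 10198 genes above the expression minimum of 8 rpbp. Below Igfbp4 came Ghr (494 rpbp), Igfbp2 (284), Igf1 (257), Igfals (182), Insr (56.7), Igfbp1 (28.0) and Irs1 (10.1). Between neighbours in this order, only Igfbp4 and Ghr, and Igfals and Insr, had sample ranges that did not overlap. All 9 members passed the minimum, which asks for a single sample above 8 rpbp. Irs2 passed it through 1 sample (ZT18 replicate 2), and Irs1 was above it in 9 of 12.

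**Figure D1:**
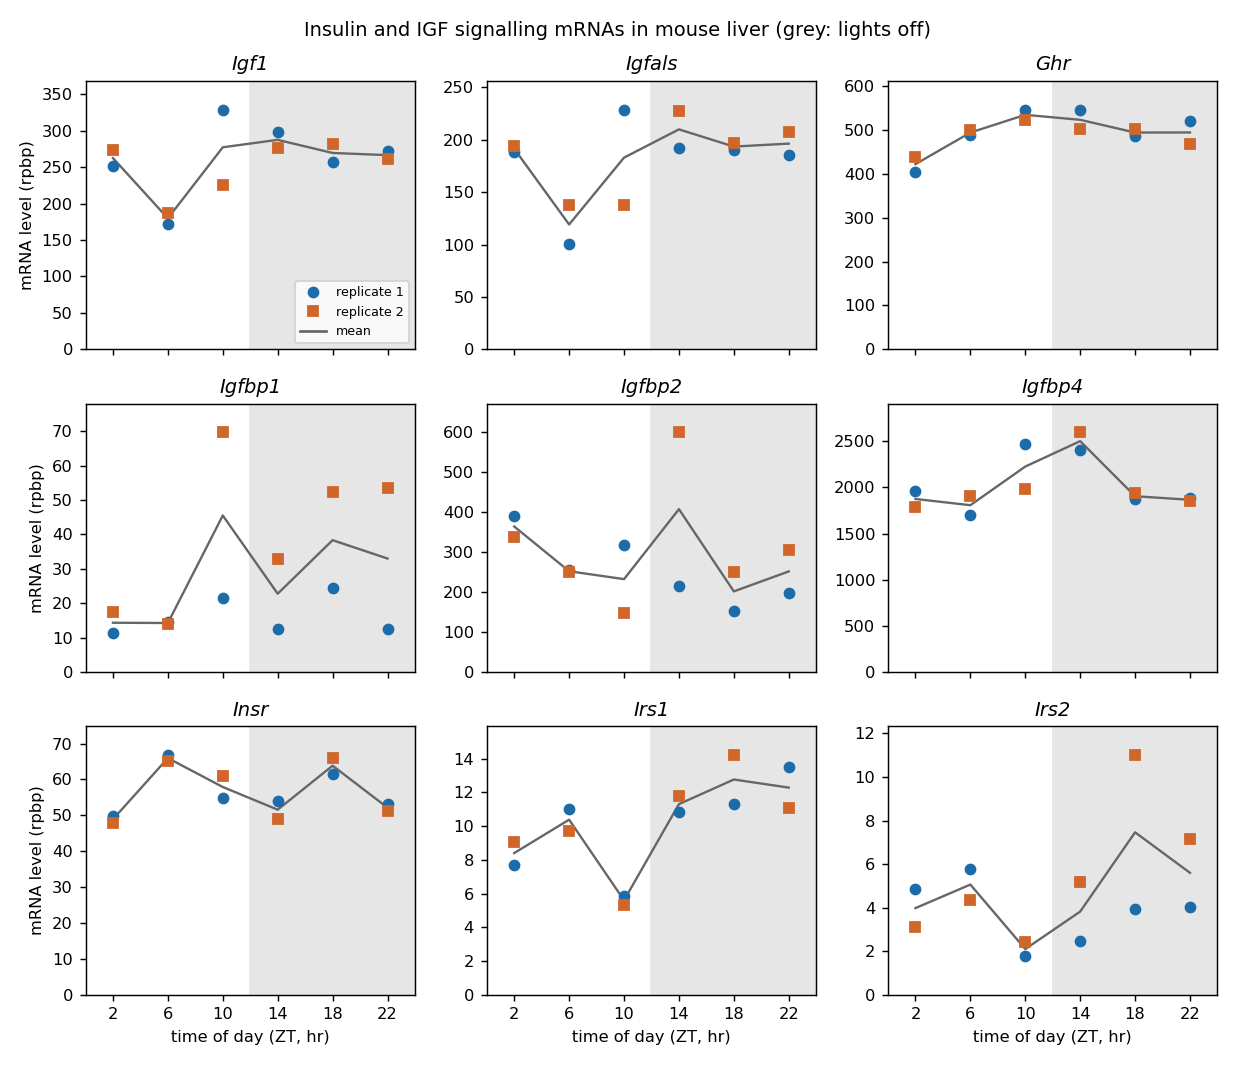
mRNA level in rpbp (y axes, each from 0) against Zeitgeber time (x axes) for each of the 9 genes, with replicate 1 as circles, replicate 2 as squares, the mean as a line and the dark hours in grey. The replicates lie closest in Ghr and Insr, and far apart in Igfbp1, Igfbp2 and Irs2.

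Both docking protein mRNAs were lowest at ZT10 in each replicate. Whether their promoters have a part in this was not tested. Irs1 lies on mm9 chr1:82229676-82287991 (minus strand, 2 exons) and Irs2 on mm9 chr8:10986980-11008458 (minus strand, 2 exons). Of the 9144 exon bases of Irs1, 2822 are shared with the exons of Gm9747, an annotated gene on the other strand, and 162 of the 4024 exon bases of Irs2 with the long noncoding RNA 9530052E02Rik. The authors' signal ignores strand, so reads from these partners cannot be told apart. Both promoters hold the E-box CACGTG, the site that CLOCK and BMAL1 bind, next to TGTTTTG, the core of the insulin response element, in 300 bases that run from 250 before to 50 after the start. The windows are RefSeq's on GRCm38.p6, at chr1:82291390-82291689 and chr8:11008880-11009179, both read on the minus strand. Capitals mark the motifs:
Irs1: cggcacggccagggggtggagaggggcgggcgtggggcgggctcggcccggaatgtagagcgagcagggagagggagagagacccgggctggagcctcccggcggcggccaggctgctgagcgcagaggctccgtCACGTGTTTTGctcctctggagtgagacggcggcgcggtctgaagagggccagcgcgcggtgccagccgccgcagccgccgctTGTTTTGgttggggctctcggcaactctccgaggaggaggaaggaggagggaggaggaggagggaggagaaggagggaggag
Irs2: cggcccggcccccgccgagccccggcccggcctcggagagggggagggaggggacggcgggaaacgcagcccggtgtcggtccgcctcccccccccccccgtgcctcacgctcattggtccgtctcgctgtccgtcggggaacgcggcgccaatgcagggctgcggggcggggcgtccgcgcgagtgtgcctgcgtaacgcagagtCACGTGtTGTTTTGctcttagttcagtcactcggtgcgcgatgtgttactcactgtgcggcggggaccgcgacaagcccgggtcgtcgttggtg
In Irs1 the E-box starts at position -115 from the start site and shares its last bases with the TGTTTTG that starts at -111, and a second TGTTTTG starts at -32. In Irs2 the E-box starts at -44 and TGTTTTG at -37. Searched on both strands, CACGTG is in 7.15% and TGTTTTG (or CAAAACA) in 6.28% of the 32851 mouse promoters of the same length. Of the 12 promoters listed for 8 of the members (none is listed for Insr), 3 hold CACGTG, those of Irs1, Irs2 and Igfbp2. TGTTTTG is in 3, those of Irs1, Irs2 and Igfbp1. Igfbp2 mRNA was lowest at ZT18 in replicate 1 and at ZT10 in replicate 2, and Igfbp1 mRNA at ZT2 and ZT6.

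Irs1 mRNA was lowest at ZT10 in both replicates and highest in the dark. It stood at 7.72 and 9.08 rpbp at ZT2 (replicates 1 and 2), 11.04 and 9.72 at ZT6, 5.88 and 5.32 at ZT10, 10.8 and 11.8 at ZT14, 11.3 and 14.2 at ZT18, ending with 13.5 and 11.1 at ZT22. Both ZT10 livers lay below all 10 others, the ZT2 livers came next, and the 3 dark times overlapped each other. The mean at ZT18 was 2.28 times that at ZT10 (12.8 ± 2.04 against 5.6 ± 0.396 rpbp, SD, n = 2 each). Levels changed among the 6 times (limma F-test on log2(rpbp + 1), adjusted p = 0.00947), and this call held without each single sample in turn (adjusted p from 0.0117 to 0.0408) and without the 3 livers with high acute phase mRNA (adjusted p = 0.0432).

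Irs2 mRNA was also lowest at ZT10 in both replicates, but its replicates were far apart in the dark. The values were 4.84 and 3.12 rpbp at ZT2, 5.76 and 4.36 at ZT6, 1.76 and 2.44 at ZT10, 2.48 and 5.16 at ZT14, 3.92 and 11 at ZT18, ending with 4.04 and 7.16 at ZT22. The ZT10 livers were below all others, with ZT14 replicate 1 just above them. The F-test over the 6 times did not pass (limma, adjusted p = 0.283), with a replicate SD of 52.6% of the mean against 12.4% in Irs1.

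Insr mRNA had 2 maxima in the day, at ZT6 and at ZT18. The levels were 49.8 and 48.0 rpbp at ZT2, 66.8 and 65.2 at ZT6, 55.0 and 60.8 at ZT10, 54.1 and 49.1 at ZT14, 61.6 and 66.0 at ZT18, ending with 53.1 and 51.2 at ZT22. The 4 livers of ZT6 and ZT18 (61.6 to 66.8 rpbp) lay above the 8 others (48.0 to 60.8 rpbp), and the mean at ZT6 was 1.35 times that at ZT2. Levels changed among the times in limma's F-test (adjusted p = 0.0329), and the replicates were close (SD 4.79% of the mean, against a median of 10.8% over all genes above the minimum). The call was near the threshold and was lost with the replicate block (limma, adjusted p = 0.0531). It was lost without either ZT2, ZT6 or ZT18 liver, without ZT14 replicate 2 or without ZT22 replicate 2 (limma, adjusted p from 0.0335 to 0.102 over all single omissions), and without the 3 acute phase livers (adjusted p = 0.204). As a description chosen after its values were seen, a 12 hr period held 0.83 of the variation of Insr and a 24 hr period 0.08, and 0.235% of the 10198 genes had as high a share at 12 hr. The other members had 12 hr shares of 0.17 (Irs1) to 0.37 (Igfbp2).

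The hormone and its partner, Igf1 and Igfals, were lowest at ZT6 in replicate 1 and at ZT6 or ZT10 in replicate 2. Igf1 lies on mm9 chr10:87321010-87399792 (plus strand) and Igfals on mm9 chr17:25014600-25018955 (plus strand). Igf1 mRNA stood at 251 and 273 rpbp at ZT2, 172 and 188 at ZT6, 329 and 226 at ZT10, 299 and 276 at ZT14, 256 and 282 at ZT18, ending with 271 and 261 at ZT22. The ZT6 livers were the lowest of the 12. In the order of their means, each of the other 5 times overlapped the next, while both ZT14 livers lay above those of ZT2 and ZT22. The mean was 179.7 ± 11.2 rpbp at ZT6 and 287 ± 16.1 rpbp at ZT14, a ratio of 1.60. The test over the 6 times missed the threshold (limma, adjusted p = 0.0653). The livers of ZT10 lay far apart, and without replicate 1 of ZT10 the adjusted p was 0.0125 and without replicate 2 it was 0.00878, where the fit took the remaining liver to vary like the rest. Without replicate 1 of ZT6 it was 0.315 and without replicate 2 of ZT6 it was 0.194 (limma, adjusted p).

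Igfals mRNA was at 189 and 194 rpbp at ZT2, 100.2 and 138 at ZT6, 229 and 137 at ZT10, 192 and 228 at ZT14, 190.1 and 197 at ZT18, ending with 186 and 207 at ZT22. Its 3 lowest values were both livers of ZT6 and replicate 2 of ZT10, the liver that also had the third lowest Igf1. The F-test did not pass (limma, adjusted p = 0.116), and passed without replicate 1 of ZT10 (adjusted p = 0.0261) or replicate 2 of ZT10 (adjusted p = 0.0275). Without replicate 1 of ZT6 the adjusted p in limma was 0.509. Hepatocyte markers summed to 138118 and 139855 rpbp at ZT6, inside the range of the other samples.

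Among the 36 pairs of members, Igf1 and Igfals were the only pair whose levels were correlated over the 12 samples after adjustment (Pearson's r = 0.92 on log2(rpbp + 1), permutation p = 8e-05, adjusted over 36 pairs 0.00288). Spearman's rho was 0.83 (permutation p = 0.0019, adjusted 0.0684). The relation held within replicate 1 (r = 0.96, 6 samples) and replicate 2 (r = 0.88, 6 samples), and the 6 differences between the replicates of a time gave r = 0.83. In both genes the largest of these differences was at ZT10 (Igf1 329 and 226 rpbp, Igfals 229 and 137 rpbp). At ZT14 and ZT22 replicate 2 was lower in Igf1 and higher in Igfals. The r of the differences without ZT10 was not computed. Without the 2 samples farthest from the median of Igf1, r was 0.76, and without replicate 1 of ZT6 it was 0.85 with an adjusted permutation p of 0.0598. Igfals was the second closest in pattern to Igf1 among all genes above the minimum, and Igf1 the second closest to Igfals. Irs1 and Irs2 came next among the pairs (r = 0.69, rho = 0.65, permutation p = 0.0140 and 0.0264), and did not pass over 36 pairs (adjusted p = 0.172). Their r was 0.51 in replicate 1 and 0.88 in replicate 2, and 0.43 without the 2 samples farthest from the median of Irs1.

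**Figure D2:**
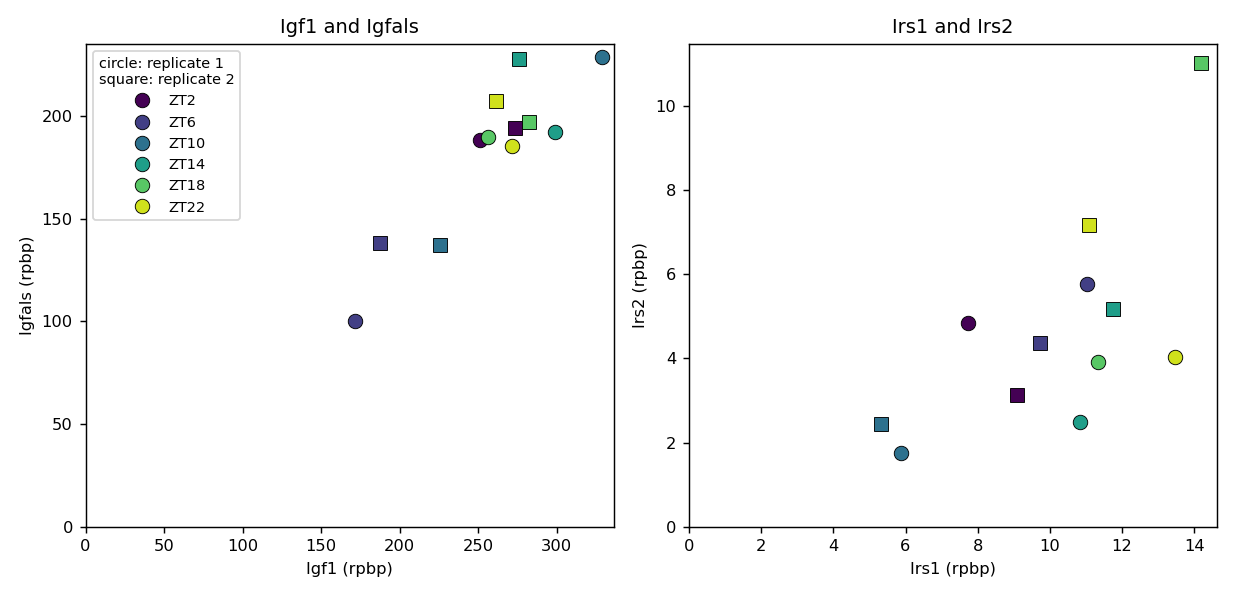
Level of Igfals against Igf1 (left) and of Irs2 against Irs1 (right) in rpbp in the 12 samples, coloured by Zeitgeber time, with replicate 1 as circles and replicate 2 as squares. Both ZT6 livers and ZT10 replicate 2 lie apart at the low end of Igfals (100.2 to 138 rpbp), and both ZT10 livers at the low end of Irs1 and Irs2.

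The promoters of Igfals are shown since STAT5, which acts below the growth hormone receptor, binds the motif TTCNNNGAA. RefSeq lists 3 starts for Igfals, and the first 2 windows, at GRCm38.p6 chr17:24877594-24877893 and chr17:24877981-24878280 (plus strand), hold it in capitals, the second also with the FOXO motif TGTTTAC:
Igfals, first start: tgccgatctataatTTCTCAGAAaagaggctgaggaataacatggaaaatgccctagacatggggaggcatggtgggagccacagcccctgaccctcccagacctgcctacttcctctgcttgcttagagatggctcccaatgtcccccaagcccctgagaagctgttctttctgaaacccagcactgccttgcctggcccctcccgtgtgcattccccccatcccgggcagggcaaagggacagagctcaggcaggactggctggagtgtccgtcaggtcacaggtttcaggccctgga
Igfals, second start: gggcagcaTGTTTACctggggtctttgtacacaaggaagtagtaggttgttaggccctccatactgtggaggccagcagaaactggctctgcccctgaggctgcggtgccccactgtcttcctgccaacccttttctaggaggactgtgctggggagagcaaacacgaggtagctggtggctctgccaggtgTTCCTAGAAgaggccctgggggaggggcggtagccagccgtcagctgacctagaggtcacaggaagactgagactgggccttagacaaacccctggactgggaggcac
The first match starts at -236 and the second at -58, and TGTTTAC starts at -242. TTCNNNGAA is in 8.30% and TGTTTAC (or GTAAACA) in 3.65% of all promoters, and no other listed promoter of a member holds either in this window. The listed promoter of Igf1 holds none of the 4 motifs.

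Ghr, the growth hormone receptor (mm9 chr15:3267760-3533492, minus strand), varied least among the members together with Insr. Its levels were 405 and 439 rpbp at ZT2, 488 and 499.8 at ZT6, 546 and 523 at ZT10, 545 and 501 at ZT14, 485 and 503 at ZT18, ending with 520.3 and 468 at ZT22. The 3 livers with high acute phase mRNA were its 3 lowest samples (405 to 468 rpbp against 485 to 546 rpbp in the other 9). Ghr had a high share of its variation at 24 hr (F24 score 0.57, permutation p = 0.0198), but its highest value was 1.35 times its lowest, under the 1.5 asked for a rhythm. Without those livers the F24 score was 0.21 (permutation p = 0.488). The F-test over the times did not pass (limma, adjusted p = 0.139).

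Igfbp4, the most abundant member (mm9 chr11:98902558-98913969, plus strand), had its highest mean at ZT14. The values were 1965 and 1785 rpbp at ZT2, 1703 and 1911 at ZT6, 2471 and 1980.2 at ZT10, 2408 and 2595 at ZT14, 1872 and 1936 at ZT18, ending with 1880.3 and 1851 at ZT22. The 4 livers of ZT10 and ZT14 lay above the 8 others. Replicate 2 of ZT10 was close to the highest of those, replicate 1 of ZT2. The mean was 2501 ± 132 rpbp at ZT14 and 1807 ± 147 rpbp at ZT6, a ratio of 1.38, and the F-test did not pass (limma, adjusted p = 0.0777). Without replicate 2 of ZT10 it did (limma, adjusted p = 0.0344), and without replicate 2 of ZT14 the adjusted p was 0.239.

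Igfbp1 (mm9 chr11:7097785-7102549, plus strand) stood at different levels in the replicates at most times. Its promoter is the textbook example of an insulin response element, and its window at GRCm38.p6 chr11:7197537-7197836 (plus strand) holds the motif on the other strand, CAAAACA, from -108:
Igfbp1: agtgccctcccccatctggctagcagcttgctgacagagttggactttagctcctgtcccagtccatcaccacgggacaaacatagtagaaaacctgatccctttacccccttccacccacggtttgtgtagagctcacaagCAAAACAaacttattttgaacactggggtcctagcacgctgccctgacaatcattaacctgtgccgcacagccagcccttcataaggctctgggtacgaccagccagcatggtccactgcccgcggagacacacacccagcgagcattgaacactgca
Igfbp1 mRNA was at 11.3 and 17.4 rpbp at ZT2, 14.6 and 13.9 at ZT6, 21.4 and 69.6 at ZT10, 12.6 and 32.9 at ZT14, 24.4 and 52.3 at ZT18, ending with 12.6 and 53.4 at ZT22. Replicate 2 was higher at 5 of 6 times, with ZT6 the exception. The mean was 16.2 rpbp in replicate 1 and 39.9 rpbp in replicate 2, a log2 difference of 1.09 (SE 0.24, 95% confidence interval 0.54 to 1.64). This did not pass over all genes (limma, adjusted p = 0.993). Between the replicates 0 of 10198 genes (0%) passed the adjustment in limma, and 4.1% had an unadjusted p under 0.05, with Igfbp1 the only such member. The F-test over the times did not pass either (limma, adjusted p = 0.421).

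Igfbp2 (mm9 chr1:72871077-72899048, plus strand) had no common daily course in the replicates. It stood at 389 and 337 rpbp at ZT2, 253.7 and 249.4 at ZT6, 317 and 147 at ZT10, 215 and 598 at ZT14, 153 and 249.4 at ZT18, ending with 198 and 304 at ZT22. At ZT14 replicate 2 was the highest of the 12 samples while replicate 1 was below most others, and the lowest level was at ZT18 in replicate 1 and at ZT10 in replicate 2. The 2 replicates had a correlation of -0.17 over the 6 times, and the F-test did not pass (limma, adjusted p = 0.488).

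Which members had a daily rhythm was asked with the F24 score, the share of the variation of the 12 concatenated values that falls on a 24 hr period. A gene was called rhythmic with an F24 above 0.45, a permutation p under 0.05 from 10000 orders and an amplitude (highest over lowest value) above 1.5. Igfbp4 and Irs1, 2 of the 9 members, were called, against 19.1% of the 10198 genes tested. Igfbp4 had an F24 of 0.56 (permutation p = 0.0233, exact p = 0.0236) and an amplitude of 1.52, just past the minimum, with a fitted peak at ZT13.0 (SE 1.13 hr). Irs1 had an F24 of 0.50 (permutation p = 0.0436, exact p = 0.0464), an amplitude of 2.67 and a fitted peak at ZT19.6 (SE 1.27 hr). The peaks of each replicate alone were ZT12.4 and ZT13.6 for Igfbp4 and ZT20.3 and ZT19.1 for Irs1.

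Neither call held after adjustment over all genes (Benjamini-Hochberg adjusted permutation p = 0.129 for Igfbp4 and 0.176 for Irs1), where 4.81% of genes were called, or with a 24 hr cosine in limma (adjusted p = 0.126 and 0.135), where 9.22% passed. Without the 3 acute phase livers Irs1 was called (F24 0.67, permutation p = 0.0317) and Igfbp4 was not (F24 0.62, permutation p = 0.0598). With single samples left out in turn, Irs1 lost its call in 9 of 12 cases and Igfbp4 in 3 of 12. Irs1 also lost it on log2(rpbp + 1) values (permutation p = 0.0550) and with the replicate block (permutation p = 0.0664). Igfbp4 lost its call when the amplitude was taken from the time-point means (1.38), where Irs1 kept its call. The 7 other members were not called, with F24 scores from 0.0032 (Igfbp2) to 0.57 (Ghr), and with 0.32 for Igf1 (permutation p = 0.187) and 0.34 for Igfals (permutation p = 0.164). Without replicate 1 of ZT10 both were called, Igf1 with an F24 of 0.60 (permutation p = 0.0210) and Igfals with 0.58 (permutation p = 0.0276), where 16.5% of all genes were called. The median F24 was 0.32 over the members and 0.31 over all genes tested, and the median amplitude 2.28 and 1.64. Closest in pattern to Igfbp4 over the 12 samples were Gm1381, Eif4ebp3 and Mapk14 (Pearson's r from 0.91 to 0.92), and closest to Irs1 were Bcar3, Dsp and AK141842 (r from 0.89 to 0.92).

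**Figure D3:**
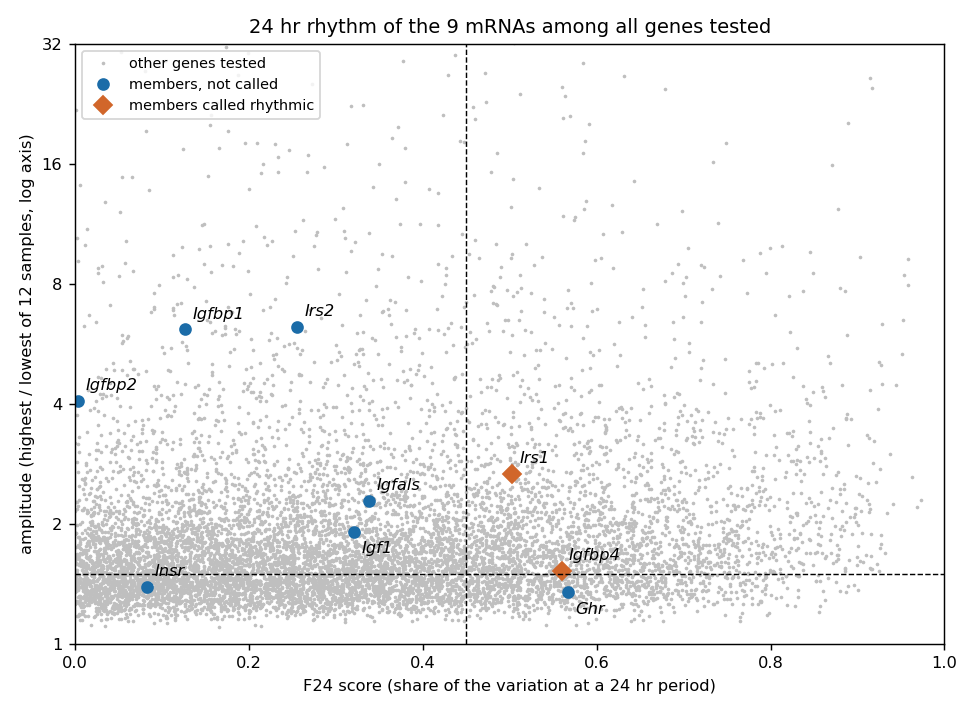
F24 score (x axis) against amplitude (y axis, log scale) of the 9 members and all other genes tested, with dashed lines at the thresholds of 0.45 and 1.5; 156 genes with an amplitude above 32 are off the axis. Igfbp4 and Irs1 lie in the upper right, Ghr below the amplitude limit, and Igfbp1, Igfbp2 and Irs2 at high amplitude but low F24.

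Irs1 and Insr, 2 of 9 members, changed among the 6 times in limma's F-test (adjusted p under 0.05), against 20.4% of all genes tested. A further 3 (Igf1, Igfals and Igfbp4) had an unadjusted p under 0.05 in limma, which makes 5 of 9 at that limit against 37.7% of all genes. The lowest sample fell on the same time in both replicates in 5 members (Igf1 at ZT6, Ghr and Insr at ZT2, Irs1 and Irs2 at ZT10), against 35.5% of all genes. Without the 3 acute phase livers 1 member, Irs1, remained called over the 5 times left, with 294 instead of 2076 of the 10198 genes.

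Mice eat mainly in the dark, and the members were compared between the 6 light (ZT2, ZT6 and ZT10) and the 6 dark (ZT14, ZT18 and ZT22) samples. None of the 9 members passed (limma, adjusted p), against 0.333% of all genes, and none passed without the 3 acute phase livers, where 2.96% of all genes did. Of the members 1 of 9 had an unadjusted p under 0.05, against 13.3% of all genes. That member was Irs1. Its lowest, median and highest levels were 5.32, 8.4 and 11.04 rpbp in the light and 10.8, 11.5 and 14.2 rpbp in the dark. The groups overlapped through 1 sample on each side, ZT6 replicate 1 and ZT14 replicate 1. The mean was 8.13 ± 2.24 rpbp in the light and 12.1 ± 1.39 rpbp in the dark (SD, n = 6 each). The dark minus light difference of Irs1 was 0.55 ± 0.15 on the log2 scale (SE, limma, adjusted p = 0.149).

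The dark minus light difference was 0.23 (95% confidence interval -0.07 to 0.52) in Igf1 and 0.33 (-0.03 to 0.69) in Igfals on the log2 scale, and neither passed (limma, adjusted p = 0.515 and 0.429). Their spread was wider in the light, with an SD of 57.8 rpbp for Igf1 against 15.2 rpbp in the dark. The intervals were narrow for Ghr (-0.11 to 0.24), Insr (-0.26 to 0.18) and Igfbp4 (-0.17 to 0.34), and wide for Igfbp1 (-0.59 to 1.41), Igfbp2 (-0.72 to 0.60) and Irs2 (-0.22 to 1.10), whose differences this number of samples could not settle. The interaction of replicate with light and dark passed in 0 members and 0 of all genes (limma, adjusted p), with 1 member, Igfbp2, at an unadjusted p of 0.0191, against 2.32% of all genes with an unadjusted p under 0.05.

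**Figure D4:**
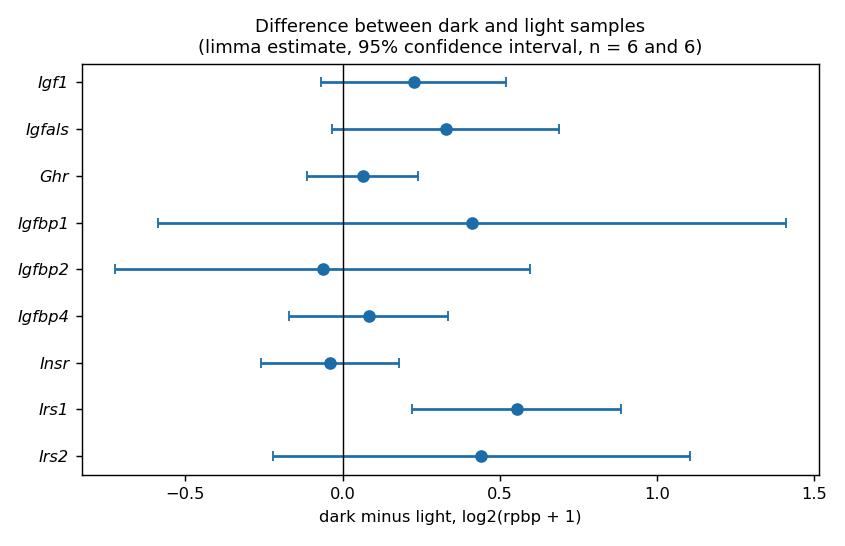
Difference between dark and light samples on the log2(rpbp + 1) scale (x axis, dark minus light) for the 9 members, with limma's estimate as a point and the 95% confidence interval as a bar. Irs1 alone has an interval clear of 0 (0.22 to 0.89) before adjustment, and the bars of Igfbp1, Igfbp2 and Irs2 are the widest.

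The members sit among 61 other genes of these pathways, of which 59 were found and 44 passed the expression minimum. Of these 44, 12 were rhythmic (permutation p, F24 and amplitude) and 11 changed among the 6 times (limma, adjusted p), against the 19.1% and 20.4% of all genes given above, and 0 differed between light and dark (limma, adjusted p), with 3 at an unadjusted p under 0.05, against 0.333% and 13.3% of all genes. After adjustment 5 of the 12 rhythms remained, those of Igfbp5, Stat5b, Grb14, Foxo1 and Ceacam1, or 5 of 44 genes against 4.81% of all genes.

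The counts of rhythmic genes in the lists below stand beside the 19.1% called over all genes tested. Among other ligands, receptors and binding proteins, 4 of 11 passed the minimum and 1, Igfbp5, was rhythmic, with a mean of 5.72 rpbp at ZT2 and 22.9 rpbp at ZT10 (F24 0.89, adjusted permutation p = 0.0194). The growth factor Igf2 and the IGF1 receptor Igf1r were at most at 0.60 and 0.96 rpbp in any liver. Igfbp3, the main plasma carrier of IGF1, had its highest mean at ZT6 (34.3 rpbp), the time at which Igf1 and Igfals were lowest, and did not pass (permutation p = 0.190 for the rhythm, limma adjusted p = 0.116 for the times). In growth hormone signalling, 2 of 6 were rhythmic, Stat5b (peak at ZT21.7, 27.3 rpbp at ZT10 and 42.3 rpbp at ZT2, adjusted permutation p = 0.0372) and Stat5a. Socs2, which damps the receptor, changed among the times (limma, adjusted p = 0.0246) with 4.32 rpbp at ZT14 and 37.6 rpbp at ZT2.

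Below the insulin receptor the same 19.1% of all genes applies beside each count. Of the docking and adaptor genes 2 of 6 were rhythmic, Shc1 and Grb14, an inhibitor of INSR (peak at ZT0.3, 21.0 rpbp at ZT10 and 35.8 rpbp at ZT2, adjusted permutation p = 0.0321). Of the PI3K and AKT genes 1 of 7 was rhythmic, Pik3cb, while the regulatory subunit Pik3r1 (F24 0.40) and the kinases Akt1 (F24 0.14) and Akt2 (F24 0.24) were not called. Of 13 genes of the FOXO, GSK3 and mTOR arm 3 were rhythmic: Foxo1 (peak at ZT11.4, 20.8 rpbp at ZT2 and 31.9 rpbp at ZT10, adjusted permutation p = 0.0211), Foxo3 (listed as Foxo3a) and Mtor (listed as Frap1). Of the brakes 2 of 6 were rhythmic, Trib3 and Enpp1. Of the 2 genes of insulin clearance, Ceacam1, which promotes the uptake of the insulin receptor complex, was rhythmic (peak at ZT22.4, 72.5 rpbp at ZT10 and 116 rpbp at ZT22, adjusted permutation p = 0.0146), and Ide was not.

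In 8 of the 12 rhythmic pathway genes the lowest or the highest mean was at ZT2, the time of 2 of the 3 acute phase livers, against 54.3% of all rhythmic genes and 51.1% of all genes tested. Without the 3 acute phase livers 9 were rhythmic, against 12.7% of all genes, and 7 of them were among the 12. The 5 lost were Enpp1, Foxo3, Pik3cb, Shc1 and Stat5a. Igfbp3 and Inppl1 were called only without those livers. Only Igfbp5 changed among the 5 times left (limma, adjusted p), against 2.88% of all genes.

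**Figure D5:**
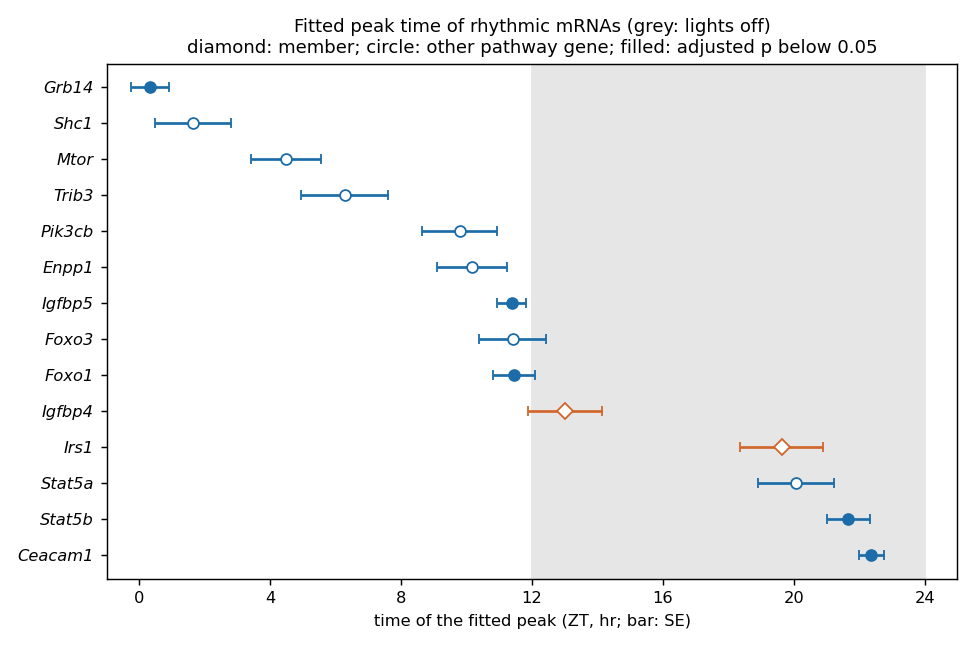
Fitted peak time (x axis, Zeitgeber time in hr; bars are SE) of the 2 rhythmic members (diamonds) and the 12 rhythmic pathway genes (circles), filled where the adjusted permutation p is under 0.05. Igfbp4 peaks near the start of the dark hours beside Foxo1 and Igfbp5, and Irs1 late in them beside Stat5a and Stat5b.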

How the data were processed

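Liver poly(A) RNA of 12 samples was analysed. The deposited signal is the authors' read coverage per base pair over a gene's merged exons, strand ignored, for uniquely mapped sequences (mm9; CASAVA 1.8 and TopHat per the labels), scaled by the authors to 10000000 sequences. It is neither a count nor log2, and no counting interval was made, since the table holds no depths and the mapped sequence totals that the study lists were not used here. The last time is headed ZT20 in the table and ZT22 in the labels and was taken as ZT22. The deposited F24 fraction, phase and p-value columns (3) are the authors' results and were not used.

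Signals were multiplied by 4. Genes with a value above 8 rpbp were tested. F24, its permutation p (10000 orders, seed 1) and the peak time came from a Fourier fit at 24 hr in numpy 2.4.6. Limma 3.58.1 (R 4.3.3, empirical Bayes with a trend) was fitted to log2(rpbp + 1) of all genes, with Benjamini-Hochberg adjustment over all of them. Both were checked on simulated data. Pairs of members used 100000 permutations. Coordinates are from GENCODE M1 on mm9, and promoters are RefSeq's on GRCm38.p6, with 12 windows matched to 8 members. Members, gene lists and tests were chosen with earlier results of these data known. Named genes are the members, up to 10 rhythmic genes of the pathway lists with the highest F24, some preset pathway genes, and the 3 genes most like each rhythmic member. Shc1, Ide and the 12 hr share were added after their values were seen. Alternatives were a pseudocount of 0.1, a minimum of 16 rpbp or none, median-of-ratios size factors, the adjusted p, a limma cosine, amplitudes of time means, the replicate block, and leaving out samples.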

Additional observations from a re-analysis of the deposited data

How the results depend on the processing

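Of the 2 rhythmic members, Igfbp4 alone remained on log2 values, with the replicate block and with a minimum of 16 rpbp. At that minimum Irs1 was not tested. Irs1 alone remained with amplitudes of time means and without the 3 acute phase livers (an alternative chosen after the data were seen). With the adjusted permutation p or the limma cosine 0 remained, and leaving out samples or a replicate gave 0 to 3. Over all genes, 19.3% were called on log2 values and 17.7% with the replicate block. The share was 19.9% with a minimum of 16 rpbp and 14.5% with amplitudes of time means. Members that changed among the 6 times went from 2 to 1 with a minimum of 16 rpbp (Irs1 was not tested), 1 with the replicate block (Irs1) and 1 without the 3 livers, and were 1 to 5 with samples left out. The 12 rhythmic pathway genes became 5 with the adjusted permutation p and 6 with the limma cosine (2 to 12 with samples left out), and the 11 that changed among the times became 6 with no minimum and 1 without the 3 livers (4 to 11 with samples left out). No member differed between light and dark under any alternative, but the sign of the log2 difference turned without the 3 livers in Ghr (-0.0091), Igfbp1 (-0.019) and Igfbp2 (0.10). With samples left out, it ran from -0.75 to 0.62 in Igfbp2, from -0.090 to 0.0040 in Insr and from -0.11 to 1.00 in Irs2. The correlated pair was 1, and 0 to 1 with samples left out. The cause of these changes was not tested. Samples with the same replicate number did not deviate together (r above 0.1 in 2 of 15 pairs of times, -0.15 to 0.21), so the number was not taken as a pairing. With 2 samples a time, differences within the replicate spread of Igfbp1, Igfbp2 and Irs2 were not detectable.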
